A study of Mus musculus with 10 samples.

Results

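Fcgr3, Fcgr2b, Ly86, Spi1 and Trem2 encode 4 receptors or receptor partners and 1 transcription factor of microglia, the resident macrophages of the brain. They are 5 of the 19505 genes measured in a comparison of mRNA in the hypothalamus of old and young mice. The genes were chosen by name on their Old minus Young differences in these same arrays, and each was read from its brightest probe set, which was the only probe set for each of the 5. Their differences between the ages are therefore given as a description, and the calls that a fit to all genes makes among them are counted below without being read as evidence. A gene whose SD over the 10 arrays was under 0.01 log2 was treated as having a level only. Spi1, at an SD of 0.127, varied least of the 4 genes above this limit, and Trem2, at 0.00089, lay below it.

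The tissue came from male mice of the inbred strain C57BL/6J, with 5 arrays at 138 weeks of age (Old 1 to Old 5) and 5 at 24 weeks (Young 1 to Young 5). Neither group had a genetic change or a treatment, and both were kept with free access to food and water under a light-dark cycle. RNA was hybridised to the Clariom S Mouse array, a 1-colour array with 1 value per probe set, and the values are read here as log2 signal. Whether every array stands for its own animal is not said in the labels, so any p-value measures the spread between these samples, which may be technical in part. In whole hypothalamus, more microglia and more RNA per microglial cell cannot be told apart.

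Fc gamma receptors bind the constant part of IgG antibodies on the surface of microglia and other myeloid cells. Activating receptors such as Fcgr3 signal through the gamma chain Fcer1g and the kinase Syk, whereas Fcgr2b carries an inhibitory motif that recruits phosphatases. Trem2, a lipid-sensing receptor, signals through the adaptor Tyrobp to the same kinase. Ly86, also called MD-1, is the secreted partner of Cd180, a relative of the Toll-like receptors found mainly on B cells and myeloid cells. Spi1 encodes PU.1, the transcription factor on which macrophages and microglia depend, which binds purine-rich DNA with the core GAGGAA.

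Of the 22206 probe sets deposited, 97.9% had been reduced to 1 common spread of 1e-05 log2, so that only 276 of the 19505 genes varied by an SD of at least 0.01 log2. Fcgr3, Fcgr2b, Ly86 and Spi1 were among these 276. How far the differences of the varying genes were also reduced is unknown, so each fold describes the deposited values. Young 5 stood apart for choroid plexus transcripts, with all 7 varying genes of 10 listed highest in that array. Young 3 had albumin transcript Alb at 6.87 log2, against at most 6.34 in the other arrays. Of 16 hypothalamic transcripts measured, Pmch, Hcrt and Avp had mean levels of 10.36, 9.03 and 9.37 log2, among the brighter ones. Crh, Pomc, Gnrh1 and Nkx2-1 had 6.94, 6.32, 6.23 and 6.23 log2. No detection call was used here, so absence of a marker could not be judged. limma called 0 of the 16 between the ages, with 4 at an unadjusted p under 0.05. Among these 4, Avp, Npy and Sst differed by 0.62, 0.20 and -0.16 log2 (Old minus Young, limma adjusted p = 0.182, 0.688 and 0.465). The microglial markers P2ry12, Csf1r, Tmem119 and Cx3cr1 had levels of 8.29, 8.24, 7.31 and 6.99 log2 with no usable spread.

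Promoter sequences are shown for the 4 genes that matched the RefSeq promoter table of build GRCm38.p6 (Fcgr3, Fcgr2b, Ly86 and Trem2), because one of the genes described here, Spi1, encodes a factor with a known DNA core. Each line is 150 bases that end just before an annotated start, 5′ to 3′ along the gene's own strand. Capitals mark matches, on either strand, to GAGGAA, the PU.1 core, or to the composite ETS-IRF element (GGAA, any 2 bases, GAAA), bound by PU.1 together with an interferon regulatory factor. Both motifs were chosen after the sequences had been seen.
Fcgr3, minus strand, chr1:171059395-171059544: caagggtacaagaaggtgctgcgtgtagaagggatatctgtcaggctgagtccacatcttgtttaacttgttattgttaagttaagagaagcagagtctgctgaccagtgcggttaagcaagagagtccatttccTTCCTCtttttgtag
Fcgr2b, minus strand, chr1:170976072-170976221: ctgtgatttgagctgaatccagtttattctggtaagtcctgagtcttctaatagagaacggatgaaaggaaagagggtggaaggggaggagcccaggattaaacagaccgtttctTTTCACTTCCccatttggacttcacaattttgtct
Ly86, plus strand, chr13:37345195-37345344: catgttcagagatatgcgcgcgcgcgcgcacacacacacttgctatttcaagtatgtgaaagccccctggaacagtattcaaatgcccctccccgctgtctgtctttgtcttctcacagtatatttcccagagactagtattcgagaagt
Trem2, plus strand, chr17:48346251-48346400: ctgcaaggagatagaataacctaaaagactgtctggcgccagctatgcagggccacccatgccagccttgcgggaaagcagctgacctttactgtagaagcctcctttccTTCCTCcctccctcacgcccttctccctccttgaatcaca

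The whole windows of 300 bases (250 before and 50 after a start) were searched on both strands. Fcgr3 has 2 annotated starts that share its GAGGAA match, which lies at positions -15 to -10 of the start shown. Trem2 has a GAGGAA match at -40 to -35, and Fcgr2b has a match to the composite element, spelled GGAAGTGAAA, at -35 to -26. All of these lie on the strand opposite to the gene, and the Ly86 window held neither motif. GAGGAA was found in 28.3% of the 32851 windows in the table and the composite element in 2.72%, so the first is common in windows of this length. Both motifs contain GGAA and can overlap, but no 2 matches overlapped in these windows.

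Fcgr3, the low-affinity activating receptor for IgG, had 7.56, 7.66, 7.59, 7.69 and 7.43 log2 in Old 1 to Old 5, against 7.25, 7.12, 7.17, 6.89 and 7.01 log2 in Young 1 to Young 5. All Old arrays lay above all Young arrays, with a gap of 0.181 log2 between Old 5, the lowest Old array, and Young 1, the highest Young array. The means were 7.59 ± 0.103 log2 in Old and 7.09 ± 0.143 log2 in Young (SD, n = 5 each). The difference was 0.50 log2 (SE 0.0787), or 1.41-fold, the largest of the 5 genes.

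Fcgr2b, the inhibitory Fc gamma receptor, had 6.70, 6.78, 6.75, 6.77 and 6.78 log2 in Old 1 to Old 5, against 6.43, 6.39, 6.44, 6.25 and 6.36 log2 in Young 1 to Young 5. The groups did not overlap, and the gap between them, 0.267 log2, was the widest of the 5 genes and wider than the range within either age. Old averaged 6.76 ± 0.0303 log2 and Young 6.37 ± 0.0743 log2 (SD, n = 5 each), a difference of 0.38 log2 (SE 0.0359), or 1.30-fold. The activating and the inhibitory receptor were thus both higher in Old. Their messages are similar in sequence over the part that encodes the antibody-binding domains, so a probe set may take signal from the other transcript, and probe sequences were not used here.

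In the RefSeq order of protein-coding genes on chromosome 1, Fcgr4 lies between Fcgr2b and Fcgr3. Fcgr4, an activating receptor of the same family, was listed at 5.52 log2 with a spread of 1e-05 log2, so the values cannot show a change in it. The same holds for Fcgr1, the high-affinity activating receptor, at 6.86 log2, for the shared signalling chain Fcer1g at 6.90 log2, and for the neonatal receptor Fcgrt at 6.65 log2. Of the 18 Fc receptor genes listed, the varying ones were Fcgr3 and Fcgr2b. Among the other 16, limma called 0 at an adjusted p under 0.05, and 2 had an unadjusted p under 0.05. The median difference over the 18 genes was 3.13e-06 log2, beside -8.74e-08 log2 over all genes.

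**Figure D1:**
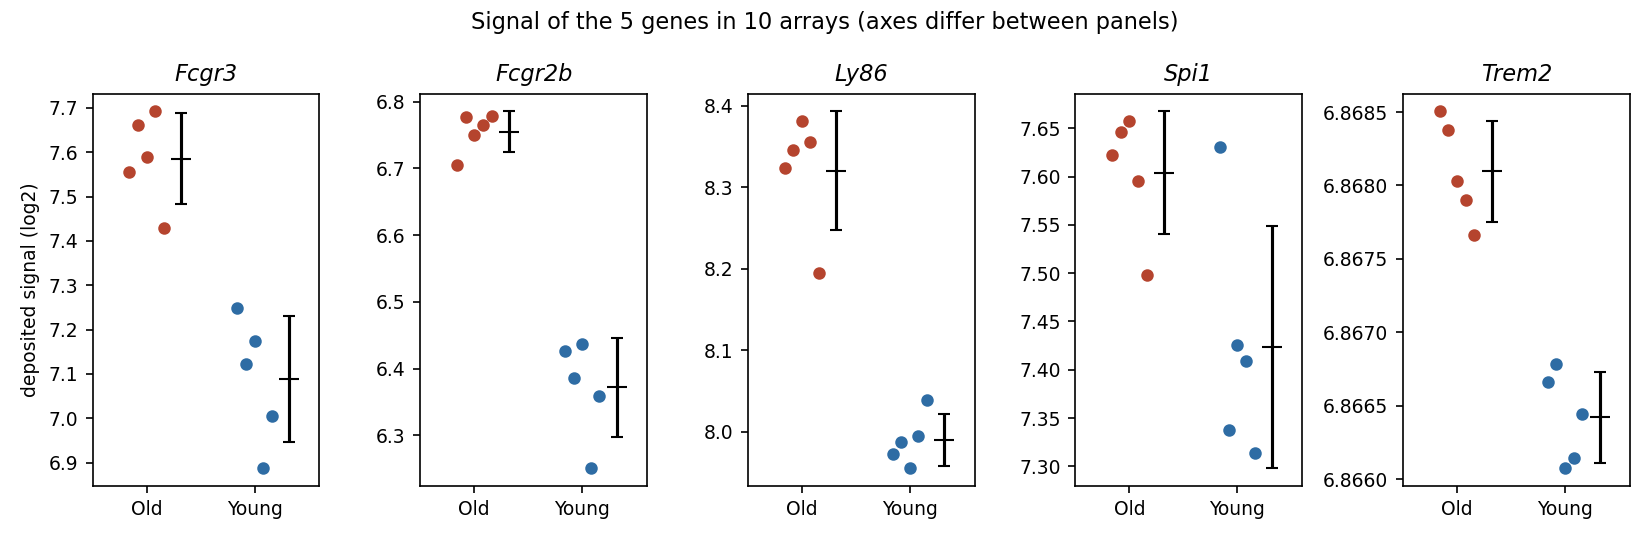
Deposited log2 signal of each of the 5 genes in the 5 Old and 5 Young arrays, with the mean and SD of each age (bars) beside the points; the vertical axes differ between panels. Old and Young do not overlap for Fcgr3, Fcgr2b, Ly86 and Trem2, whereas Young 1 lies among the Old arrays for Spi1, and the whole Trem2 axis spans less than 0.01 log2.

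Ly86 had 8.32, 8.35, 8.38, 8.36 and 8.20 log2 in Old 1 to Old 5, against 7.97, 7.99, 7.96, 7.99 and 8.04 log2 in Young 1 to Young 5. Every Old array was above every Young array, with a gap of 0.156 log2, and the Young arrays kept within 0.0838 log2 of each other. The means were 8.32 ± 0.0729 log2 in Old and 7.99 ± 0.0314 log2 in Young (SD, n = 5 each), a difference of 0.33 log2 (SE 0.0355), or 1.26-fold. Cd180, the receptor that Ly86 accompanies, was listed at 6.65 log2 without usable spread. So were Ly96 (MD-2, the paralog of Ly86 that serves Tlr4) at 6.27 log2, Tlr4, the endotoxin receptor, at 5.76 log2 and Cd14, its co-receptor, at 6.51 log2. Of 18 measured Toll-like receptor and co-receptor genes, Ly86 was the one that varied. Among the other 17, limma called 0, with 1 at an unadjusted p under 0.05, and the median over the 18 was -1.74e-06 log2.

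Spi1, which encodes PU.1, had 7.62, 7.65, 7.66, 7.60 and 7.50 log2 in Old 1 to Old 5, against 7.63, 7.34, 7.43, 7.41 and 7.31 log2 in Young 1 to Young 5. The groups overlapped: Young 1 lay above Old 1, Old 4 and Old 5, while the other Young arrays lay below all Old arrays. Old averaged 7.60 ± 0.0637 log2 and Young 7.42 ± 0.125 log2 (SD, n = 5 each), a difference of 0.18 log2 (SE 0.0628), or 1.13-fold. Without Young 1 the difference was 0.23 log2, and over all single arrays left out it was 0.15 to 0.23 log2.

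Transcription factors that act with or beside PU.1 gave little that could be measured. Irf8, which binds composite elements with PU.1, was listed at 6.39 log2, Runx1, which acts upstream of it in blood cell development, at 6.40 log2, and Cebpa, a myeloid factor, at 6.13 log2, all without usable spread. Of 20 other myeloid factors measured, 1 varied. That was Mef2c, which is also abundant in neurons, at 8.14 ± 0.0606 log2 in Old and 8.17 ± 0.0411 log2 in Young (SD, n = 5 each; difference -0.02, SE 0.0327, limma adjusted p = 0.944, 0.399 to 0.988 over the alternatives). limma called 0 of the 20, with 0 at an unadjusted p under 0.05. Of 12 measured genes known to have PU.1 sites, among them Csf1r, the receptor for the growth factor microglia need, and Itgam, an integrin of myeloid cells, 0 varied and limma called 0, with 1 at an unadjusted p under 0.05. With 0 of the 12 varying, these values cannot show the size of a change in them. The 12 are a chosen list and not all genes that PU.1 binds.

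Trem2 had 6.8685, 6.8684, 6.8680, 6.8679 and 6.8677 log2 in Old 1 to Old 5, against 6.8667, 6.8668, 6.8661, 6.8661 and 6.8664 log2 in Young 1 to Young 5. All Old arrays were above all Young arrays, but the difference of means was 0.0017 log2 (SE 0.00021), and with an SD under 0.01 log2 its values give the level of Trem2, near 6.87 log2, and not the size of a change. Quantile normalization and median centring left differences of 0.000296 and 0.000272 log2. Tyrobp, the adaptor that carries the Trem2 signal, was listed at 6.61 log2, its alternative Hcst at 5.76 log2, and the kinase Syk at 7.16 log2, all with a spread of 1e-05 log2. The Trem-like genes Treml1, Treml2 and Treml4, which lie within 3 places of Trem2 in the RefSeq gene order on chromosome 17, were likewise listed at 6.69, 6.76 and 5.98 log2. Of 12 other genes in the Trem list, Apoe, a lipid carrier that binds Trem2, varied. It had 11.81 ± 0.042 log2 in Old and 11.72 ± 0.0254 log2 in Young (SD, n = 5 each), a difference of 0.09 (SE 0.022) with no overlap between the ages and a limma adjusted p of 0.242 (0.00701 to 0.643 over the alternatives). limma called 0 of these 12, with 2 at an unadjusted p under 0.05.

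In the fit to all genes, limma (2-sided, Benjamini-Hochberg adjustment over 19505 genes) called 4 of the 5 genes higher in Old, namely Fcgr3, Fcgr2b, Ly86 and Trem2, where 0.190% of all genes were called higher. Spi1 was not among them, and Trem2 was called on a difference too small to be read as a size. limma shares variance between genes, and most genes here had a collapsed spread, so these p-values and calls depend in part on collapsed values. When limma was fitted to just the 276 varying genes, Fcgr3, Fcgr2b, Ly86 and Spi1 were called, where 24.6% of the varying genes were called higher. Old lay wholly above Young in 4 of the 5 genes, where 0.836% of all genes did so, and in 3 of the 4 that varied, where 20.7% of the varying genes did so. Since these values chose the 5 genes, nothing is read from the counts. The call of Fcgr3 held without Old 5 and without Young 1 but was lost when any of the other 8 arrays was omitted, with a difference of 0.448 to 0.519 log2 in those fits, and it was also lost with a trended robust prior. The call of Trem2 was lost with quantile normalization and with median centring, while quantile normalization added Spi1. Without Young 3 and Young 5 together, 1 of the 5 genes was called, Fcgr2b, although the differences of Fcgr3, Fcgr2b, Ly86 and Spi1 were then 0.50, 0.40, 0.34 and 0.14 log2.

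Genes of the other lists were tested beside them, from microglial and myeloid programmes to other immune cells, erythroid cells, choroid plexus and hypothalamus. limma called 6 of 193 other listed genes higher in Old and 0 lower, where 0.190% of all genes were called higher and 0.0308% lower. The 6 were Ctss, Mpeg1, Lyz2, B2m, C1qc and Dock2. Since the lists were chosen with earlier results of these data known, these counts and p-values are not independent evidence. Ctss, the lysosomal protease cathepsin S, had 9.06 ± 0.0931 log2 in Old and 8.15 ± 0.0639 log2 in Young (SD, n = 5 each), and it rose by 0.91 log2 (SE 0.0505, adjusted p = 0.000172). Mpeg1, a pore-forming protein of macrophages, had 7.22 ± 0.0812 log2 in Old and 6.52 ± 0.0783 log2 in Young (SD, n = 5 each), and it rose by 0.70 log2 (SE 0.0504, adjusted p = 0.000463). Both differences exceeded those of Fcgr3, Fcgr2b, Ly86 and Spi1, a description that was not tested. Lyz2, the lysozyme of myeloid cells, and B2m, the light chain of MHC class I, rose by 0.84 (SE 0.111) and 0.66 log2 (SE 0.0639), with adjusted p of 0.0132 and 0.00252. The call of Lyz2 was lost without Old 4, Young 1, Young 2 or Young 4, at adjusted p of 0.0521 to 0.0613.

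C1qc, a chain of the complement initiator C1q, and Dock2, which activates Rac in blood cells, were called at differences of 0.0059 and 0.012 log2, below the spread at which a size can be read. The call of C1qc was lost without any single array other than Old 5 (adjusted p = 0.0585 to 0.098), and that of Dock2 without any other than Old 2 or Old 3 (adjusted p = 0.0726 to 0.132). C1qa and C1qb, the other C1q chains, were higher by 0.34 (SE 0.0595) and 0.29 log2 (SE 0.0507). Each had an adjusted p of 0.0719 and an exact permutation p of 0.00794, the smallest that 5 against 5 arrays allow, and without Old 5 they passed at 0.0137 and 0.018. With all arrays, both also passed with quantile normalization, with median centring and in the varying genes alone (limma adjusted p = 0.00146 to 0.0156). In the other 15 alternatives neither was called. Laptm5, a lysosomal membrane protein of blood cells, was higher by 0.18 log2 (SE 0.0727, adjusted p = 0.671, exact permutation p = 0.0397). Of 12 varying genes of the immune lists tested singly, Cd9, Mef2c and Xbp1 had an exact permutation p of 0.0714 or more.

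By list, the 15 pan-myeloid markers other than Ly86 held 6 varying genes, all higher in Old, with 8 at an unadjusted p under 0.05. The 4 called higher by limma were Ctss, Lyz2, Mpeg1 and C1qc, while C1qa, C1qb and Laptm5 were higher without a call. The 18 disease-associated microglia genes other than Trem2 held 6 varying genes, all higher in Old, with 6 at an unadjusted p under 0.05. Here limma called 3 higher (B2m, Lyz2 and Ctss), and Apoe, Fth1 and Cd9 were higher without a call. Of 20 genes of the signalling cascade downstream of these receptors, 0 varied, Dock2 was the one called and 4 had an unadjusted p under 0.05. Of 15 homeostatic microglia genes 0 varied, limma called 0 and 1 had an unadjusted p under 0.05. The medians of these 4 lists over all measured members were 0.0038, 8.62e-06, -1.43e-06 and -9.8e-07 log2. Markers of other immune cells did not vary either: 0 of 10 for border macrophages, 0 of 5 for monocytes, 0 of 8 for neutrophils and 0 of 9 for T and NK cells. Of 7 B and plasma cell genes 1 varied, Xbp1, which many secretory cells express, by -0.09 log2 (SE 0.0556, adjusted p = 0.825). limma called 0 genes in these 5 lists, with 0 at an unadjusted p under 0.05, and the part of such cells in the differences above was not tested, since collapsed values cannot show it.

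**Figure D2:**
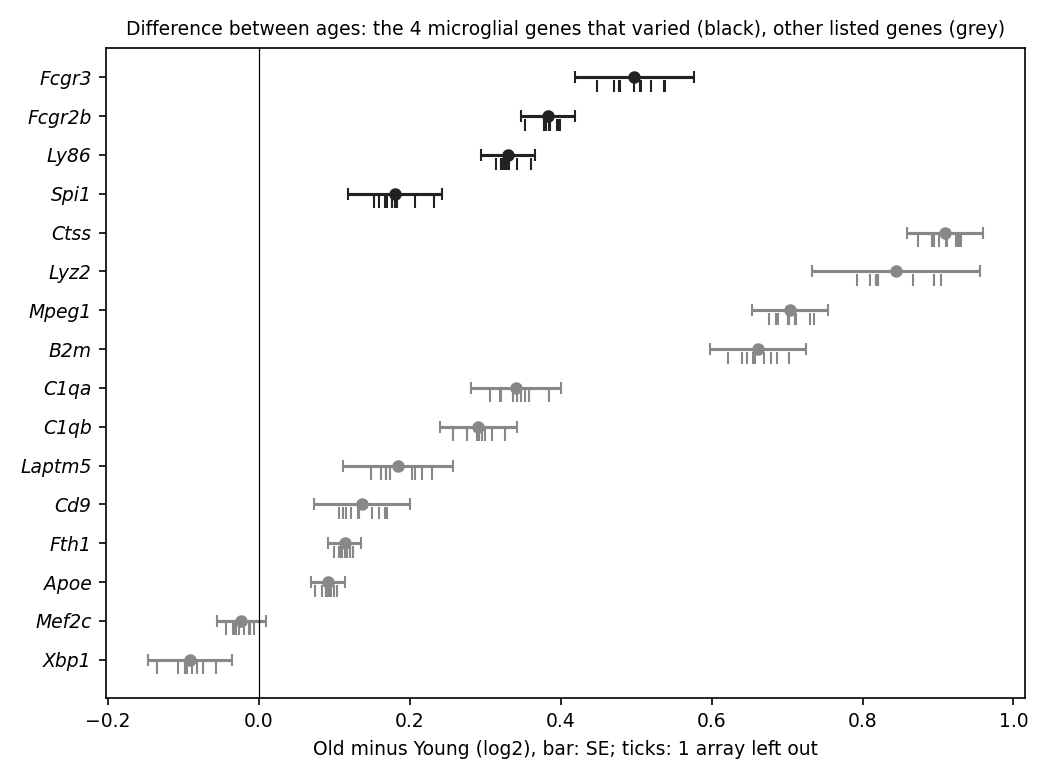
Old minus Young difference (log2, points) with its SE (bars) for the 4 microglial genes that varied, in black, and for the 12 other genes of the immune lists that varied, in grey; short ticks show the difference with each array left out in turn. Fcgr3, Fcgr2b, Ly86 and Spi1 lie between 0.18 and 0.50, below Ctss at 0.91 and above Mef2c at -0.02.

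Within each age, the 4 varying genes did not move as 1 block. Fcgr3 and Fcgr2b lay on the same side of their age mean in 8 of 10 arrays, 5 of them Young. Young 4 was the lowest Young array for both, by 0.20 and 0.12 log2 below the Young mean. Ly86 lay on the opposite side from both Fc receptors in all 5 Young arrays, though its deviations there were at most 0.05 log2. Fcgr3 and Spi1 shared a side in 7 arrays, and Ly86 and Spi1 in 5. Old 5 was the lowest Old array for Fcgr3, Ly86, Spi1 and Trem2, whereas for Fcgr2b it was the highest. These are counts over 10 arrays with no test.

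**Figure D3:**
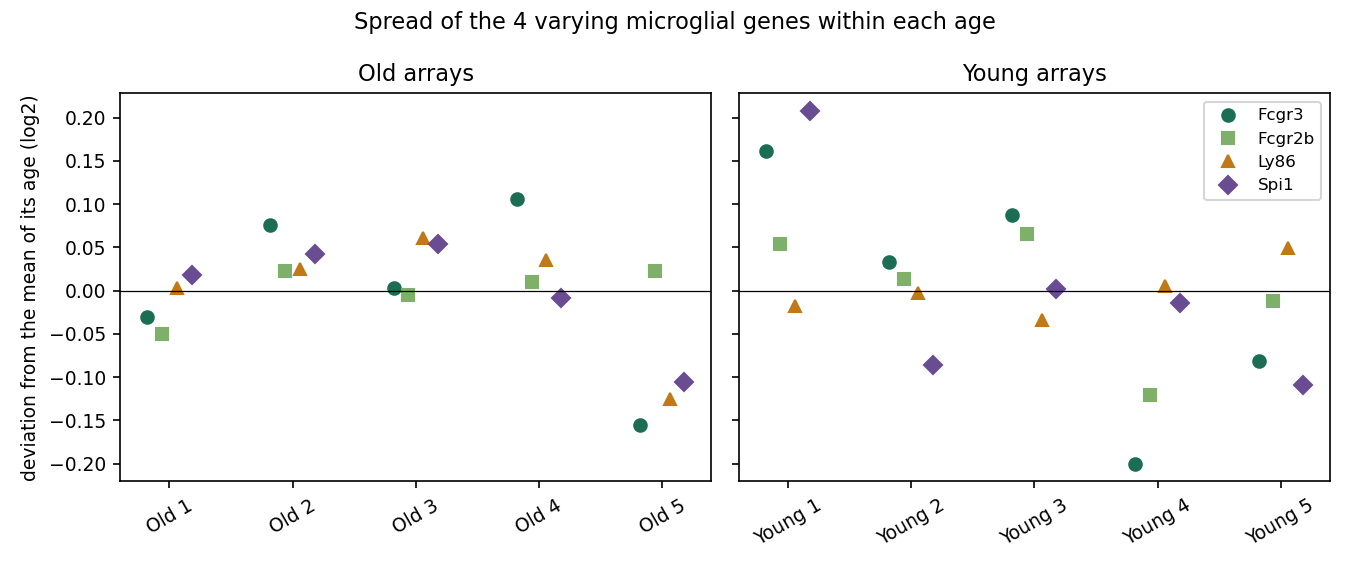
Deviation (log2) of Fcgr3, Fcgr2b, Ly86 and Spi1 from the mean of their own age in each Old array and each Young array. In Old 5 Fcgr3, Ly86 and Spi1 are below the line and Fcgr2b is above it, and in each Young array Ly86 lies on the other side of the line from Fcgr3 and Fcgr2b.

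The genes whose profile over the 10 arrays came nearest to the mean standardised profile of Fcgr3, Fcgr2b, Ly86 and Spi1 were Ftl1, Apod and C1qb. Their root mean square differences from it were 0.225, 0.24 and 0.26 SD units, against a median of 1.40 over the 272 other varying genes. Fcgr3, Fcgr2b, Ly86 and Spi1 themselves were at 0.185, 0.292, 0.346 and 0.503, so all 3 lay nearer than Fcgr2b, Ly86 and Spi1. Ftl1, the ferritin light chain, had 9.05 ± 0.04 log2 in Old and 8.91 ± 0.0279 log2 in Young (SD, n = 5 each). Apod, a lipid-binding apolipoprotein, had 11.30 ± 0.137 log2 in Old and 10.72 ± 0.0982 log2 in Young (SD, n = 5 each). Ftl1, Apod and C1qb were chosen for a shape that contains the step between the ages. When every profile was first centred on its age means, the nearest genes were Etv5 (0.452), Syn1 (0.498) and Laptm5 (0.526), against a median of 1.25. Fcgr3 was then at 0.323, but Spi1, Fcgr2b and Ly86 were farther than these genes, at 0.714, 0.875 and 1.07. The centred mean thus stood mainly for Fcgr3. Etv5, an ETS-family transcription factor, did not share the step, with a difference of -0.04 log2 (SE 0.0602, limma adjusted p = 0.943). Syn1, a synaptic vesicle protein, had a step the other way, -0.15 log2 (SE 0.0267, limma adjusted p = 0.0719), with every Old array below every Young array.

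**Figure D4:**
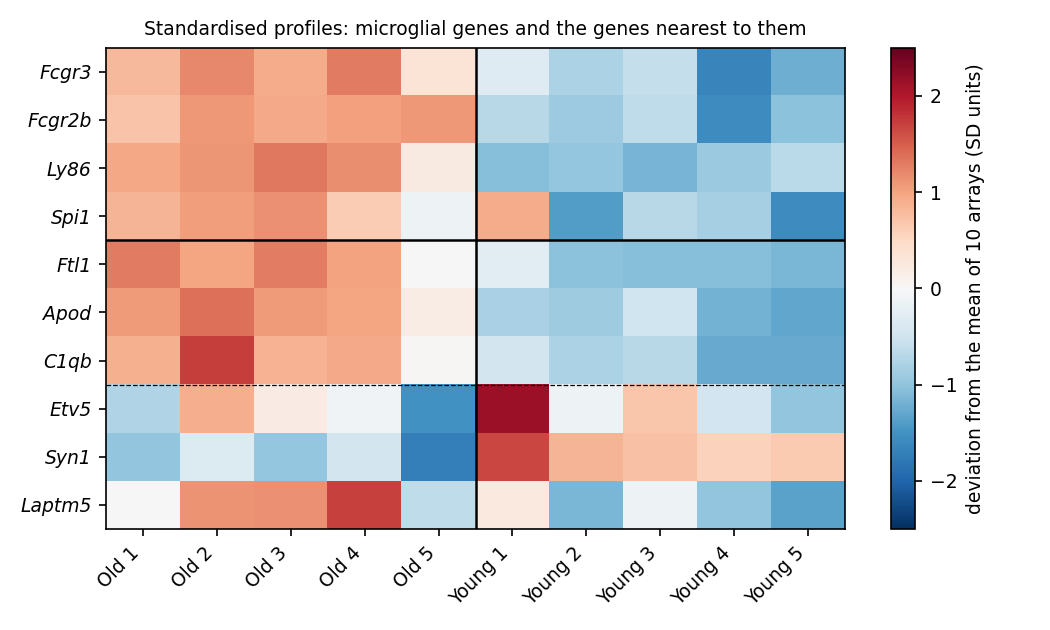
Standardised profiles (deviation from the mean of the 10 arrays in SD units, colour) of Fcgr3, Fcgr2b, Ly86 and Spi1 above the solid line, the 3 genes nearest over all arrays between the lines and the 3 nearest after centring on age means below the dashed line, with Old arrays left and Young arrays right. Ftl1, Apod and C1qb show the step between the ages, and Etv5 and Syn1 are lower in Old 5 than in the other Old arrays.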

How the data were processed

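The authors deposited 1 value per probe set and array from the Clariom S Mouse array, per the labels; the log2 scale is inferred from values between 5.00 and 12.97, since the deposited table does not name the base. Background correction, normalization and summarisation before deposit are not stated in the labels or the table, and array medians lay between 6.778 and 6.783. Probe sets were named through the platform annotation, where 19572 have a single symbol, 0 have several and 2634 are unnamed; the brightest probe set of each gene was kept (19505 genes). Of these, 19118 had an SD of 1e-05 log2 within 1% and 111 lay between that and 0.01 log2. Genes of the lists with no row among these (25) were not analysed here.

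Old was compared with Young with limma (version 3.58.1, R 4.3.3, lmFit, eBayes, 2-sided, Benjamini-Hochberg over all genes, threshold 0.05). On simulated data, the check required just that mean estimated differences matched those built in, so it does not vouch for p-values or calls. The variance prior of eBayes came from all genes, 19118 of 19505 of them collapsed, so every p-value and call from that fit depends on it. Differences are Old minus Young, and SE comes from the SD within ages. Single genes outside the 5 also had an exact permutation test over 252 labellings. The members, lists, tests and alternatives were chosen with earlier results of these data known. Named genes are the 5 members, genes of the fixed lists that varied or passed, and the nearest profiles. Pmch, Hcrt, Avp, Npy, Sst and Alb, and levels of genes that did not vary, were named outside that rule. Replicate numbers were not treated as pairs in the main fit. The number of arrays limits the precision.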

Additional observations from a re-analysis of the deposited data

Results flagged for a closer look

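Over 22 genes and both ages, 5 of 44 groups had 1 array far from its nearest neighbour (a gap above 0.71 of the range of the group), and chance gives about 1 in 20 groups. No array passed this cut for Fcgr3, Fcgr2b, Ly86 or Spi1. Still, Old 5 was the lowest Old array for Fcgr3, Ly86 and Spi1, and Young 1 the highest Young array for Fcgr3 and Spi1. Ftl1, a gene with a profile near theirs, was lowest among Old arrays in Old 5, at 8.98 log2 with the nearest Old array at 9.06, and highest among Young arrays in Young 1, at 8.96 log2 with the nearest at 8.90. Syn1 was highest among Young arrays in Young 1, at 10.23 log2 with the nearest at 10.16. Ttr, the transthyretin of choroid plexus, was at 12.44 log2 in Young 5, far above Young 3 at 7.97. Alb was at 6.87 log2 in Young 3, above Young 1 at 6.17.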

How the results depend on the processing

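The differences of Fcgr3, Fcgr2b, Ly86 and Spi1 stayed positive in all 19 alternatives, at 0.45 to 0.54, 0.35 to 0.40, 0.31 to 0.36 and 0.14 to 0.23 log2, each within 1 SD of the value given above. Much of this was fixed in advance. Alternatives that change just the test or the set of genes leave these means as they are. Old and Young do not overlap for Fcgr3, Fcgr2b and Ly86, so leaving arrays out could not turn their sign. The Trem2 difference moved by more than its SD, to 0.000296 log2 with quantile normalization and 0.000272 log2 with median centring, and stayed at 0.0016 to 0.0018 log2 with single arrays left out. The number of the 5 genes called higher was 4, against 1 without Young 3 and Young 5, 3 to 4 with single arrays left out, 3 with median centring (without Trem2) and 3 with the trended robust prior (without Fcgr3). The 4 called were the same in number but not in name after quantile normalization, and likewise when the fit held just the varying genes, namely Fcgr3, Fcgr2b, Ly86 and Spi1. Over all genes 37 were called higher and 6 lower, against 154 and 6464 with quantile normalization, which moved the median of the genes that do not vary by -0.00038 log2. The fit to the varying genes alone called 68 and 31, the trended robust prior called 10 lower, the fit without Young 3 and Young 5 called 22 and 2, and single arrays left out gave 25 to 37 and 4 to 9. Of other listed genes 6 were called higher and 0 lower, against 11 and 39 with quantile normalization and 1 lower in the varying genes alone; single arrays left out gave 3 to 7 higher. With the replicate number as a block, 10 genes were called higher and 1 lower, 1 of the 5 genes (Trem2) and 2 other listed genes. Same-numbered arrays had a correlation of their deviations over 0.1 in 2 of 5 pairs, and 0 of 5 Old arrays correlated best with their own number. With just 5 pairs, this cannot show whether same-numbered arrays were handled together. The block leaves fewer degrees of freedom and changes the SE of a gene, for Ly86 from 0.0355 to 0.0456 log2. The varying genes alone are fewer tests and have a variance prior of their own. The cause of the changes between alternatives was not tested. No background correction could be varied, since only summarised values were used here.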

Other observations

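Old 5 was the lowest Old array for 4 of the 5 genes (Fcgr3, Ly86, Spi1 and Trem2) and for 4 of the 7 named pan-myeloid markers other than Ly86 (C1qa, C1qb, C1qc and Laptm5). It was the highest Old array for 1 of the 5 genes, Fcgr2b, and for 0 of the 7 markers. Without Old 5 the differences of Fcgr3, Ly86 and Spi1 were 0.54, 0.36 and 0.21 log2, against 0.50, 0.33 and 0.18 log2 with all arrays, and that of Fcgr2b was 0.38 log2 in both. Aif1, which encodes the microglial marker Iba1, was higher by 0.0017 log2 with an SD under 0.01 log2 (limma adjusted p = 0.0604), so that, like Trem2, it has a level, 6.12 log2, and no size of change.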
